A study of Mus musculus with 12 samples.

Results

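Macrophage-gated cells came from injured muscle of mice labelled null/null for the interferon-γ receptor gene Ifngr1 and given TNF-neutralizing antibody. They were compared with cells that had neither perturbation. The comparison used 6 of the 12 libraries of the series, chosen by their genotype and treatment labels: 3 null/null libraries with anti-TNFA antibody and 3 wt/null libraries with isotype antibody. The other groups, 3 null/null libraries with isotype antibody and 3 wt/null libraries with anti-TNFA antibody, carried a single perturbation each and gave the changes that the combined one was set against. In all 4 groups the tibialis anterior, a muscle of the lower leg, had been injured with notexin, a snake venom toxin that destroys muscle fibres, the antibody was injected into the peritoneum every day, and live CD45+ CD11B+ cells without LY6G or SIGLECF were sorted on day 5 for bulk RNA sequencing. The control group was therefore not wild type: it carried 1 null allele of Ifngr1, and it shared the injury and an antibody injection with the others. The labels give no age or sex, do not name the cells in which Ifngr1 was disrupted, and do not say whether each library came from its own mouse, so the p-values measure only the spread between these libraries. Titles start with 40 or 46, a number whose meaning the labels do not give, and each group holds 2 libraries titled 40 and 1 titled 46.

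Interferon-γ (IFN-γ), made mainly by T and NK cells, binds a receptor of IFNGR1 and IFNGR2 chains and signals through Janus kinases to gamma-activated sites in promoters, inducing IRF1, guanylate-binding proteins (Gbp), immunity-related GTPases, antigen presentation genes and the T-cell-attracting chemokines Cxcl9 and Cxcl10. TNF binds the receptors TNFRSF1A and TNFRSF1B and activates NF-κB, which induces inflammatory cytokines and chemokines, and several macrophage genes respond more strongly to the pair of cytokines than to either. Blocking both routes can therefore be read against blocking each: a combined log2 fold change equal to the sum of the single ones is additive on that scale, and the difference between the combined change and that sum is the interaction.

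The promoters of 4 of the IFN-γ-inducible genes whose libraries did not overlap between the groups are shown, because the comparison of IFN-γ targets turns on such genes and they differ in the motifs near their starts. Each window runs from 250 bases before the gene start to 50 after it, 5′ to 3′ on the gene's strand, from RefSeq on GRCm38.p6. Capitals mark TTCNNNGAA, the form of the gamma-activated site, or GAAANNGAAA on either strand, the form of the interferon-stimulated response element.
Cxcl9, chr5:92328030-92328329, minus strand, neither motif: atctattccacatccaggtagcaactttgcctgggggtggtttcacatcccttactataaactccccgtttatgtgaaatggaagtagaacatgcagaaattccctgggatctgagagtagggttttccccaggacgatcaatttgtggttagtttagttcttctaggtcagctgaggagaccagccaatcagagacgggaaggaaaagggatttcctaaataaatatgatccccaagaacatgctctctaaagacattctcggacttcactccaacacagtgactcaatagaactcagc
Gbp2, chr3:142620413-142620712, plus strand, GAAANNGAAA on the opposite strand: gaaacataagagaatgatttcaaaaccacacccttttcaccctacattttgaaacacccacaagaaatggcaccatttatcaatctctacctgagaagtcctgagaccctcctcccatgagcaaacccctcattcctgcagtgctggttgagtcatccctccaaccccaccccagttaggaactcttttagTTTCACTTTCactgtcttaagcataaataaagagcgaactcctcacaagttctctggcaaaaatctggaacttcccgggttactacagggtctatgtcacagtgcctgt
Igtp, chr11:58199306-58199605, plus strand, both motifs: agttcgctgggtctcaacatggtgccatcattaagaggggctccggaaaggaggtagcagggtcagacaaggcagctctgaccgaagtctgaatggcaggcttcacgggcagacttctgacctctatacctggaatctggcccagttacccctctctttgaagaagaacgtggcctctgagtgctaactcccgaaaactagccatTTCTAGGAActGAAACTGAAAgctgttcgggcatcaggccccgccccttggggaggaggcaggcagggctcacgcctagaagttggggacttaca
Serpina3f, chr12:104214294-104214593, plus strand, TTCNNNGAA: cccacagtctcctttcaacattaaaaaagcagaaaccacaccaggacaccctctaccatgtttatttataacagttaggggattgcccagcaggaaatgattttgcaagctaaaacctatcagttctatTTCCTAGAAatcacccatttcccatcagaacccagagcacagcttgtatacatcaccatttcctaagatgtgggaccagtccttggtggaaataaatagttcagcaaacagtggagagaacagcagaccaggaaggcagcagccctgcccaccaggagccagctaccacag
Of the 33 measured genes of the IFN-γ-inducible list, 21 had such a window. TTCNNNGAA was in 11 of the 21 (52.4%), against 6.96% of the windows of all tested genes, and GAAANNGAAA was in 12 (57.1%), against 3.16%. The NF-κB form GGGNNNNNCC, searched on both strands, was in 25 of 32 windows of the NF-κB target list (78.1%), against 67.8% of the tested genes' windows. In Igtp the 2 motifs lie side by side without overlap. A match describes the letters and not a bound site.

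Libraries held 23.2 to 29.9 M counts each, and 12981 genes were tested. Macrophage markers were high in all 12 libraries: Adgre1 (F4/80) was at 1368 to 1783 CPM (counts scaled to library size, per M counts) and Csf1r at 3157 to 4061 CPM. The 13 macrophage markers summed to 32753 to 41437 CPM per library. Markers of other cells were also present. The 13 Ly6C-high monocyte markers summed to 1637 to 2153 CPM. The 10 fibroblast markers summed to 413 to 1794 CPM, and both of these extremes were null/null anti-TNF libraries. A pair of anti-TNF libraries stood apart on the first principal component (34.4% of the variance, 54.2 and 45.9 against at most -3.47 in the others): wt/null anti-TNF replicate 2 and null/null anti-TNF replicate 1. The latter belongs to the comparison. In null/null anti-TNF replicates 1, 2 and 3, the gelatinase Mmp9 was at 19.2, 171 and 826 CPM, the dendritic-cell receptor Flt3 at 89.3, 24.9 and 31.5 CPM and the T-cell gene Cd8a at 2.99, 0.544 and 0.304 CPM. Values are given with and without these libraries where they move a result, and in bulk samples fewer cells of a type and less RNA per cell cannot be told apart.

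Ifngr1 itself had the smallest p and was the only gene to pass the test. It was at 240, 227 and 229 CPM in the wt/null isotype libraries and at 119, 87.2 and 83.3 CPM in the null/null anti-TNF libraries. The groups did not overlap, and the null/null library that stands apart was the highest of its group. The combined log2 fold change was -1.27 ± 0.12 (SE, edgeR quasi-likelihood test, Benjamini-Hochberg adjusted p = 0.00173, 3 against 3). The level fell to 41.6% of the control mean. Genotype alone gave -1.39 and antibody alone 0.06, with wt/null anti-TNF libraries at 226, 250 and 249 CPM and null/null isotype libraries at 87.9, 88.0 and 90.2 CPM. The interaction for Ifngr1 was 0.06 ± 0.17 (SE, 95% interval -0.30 to 0.42). The counts that remain in the null/null libraries cannot be assigned to a part of the gene, because the table holds 1 count per gene. The partner chain Ifngr2 was at 185 to 213 CPM in the controls and at 202 to 217 CPM in the null/null anti-TNF libraries, and the groups overlapped.

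Across all genes, 1 of 12981 (0.0077%) was called in the combined comparison by edgeR at an adjusted p below 0.05, and it was Ifngr1, which was lower. DESeq2 and limma voom each called the same single gene. At an unadjusted p below 0.05, 95 genes were lower (0.732%) and 181 higher (1.39%). Genotype alone called 1 gene (0.0077%), again Ifngr1, with 234 genes at an unadjusted p below 0.05, and DESeq2 added Ptprb. Antibody alone called 0 genes by edgeR, with 581 at an unadjusted p below 0.05, and 0 by DESeq2 and by limma voom. For the interaction edgeR called 0 genes, with 196 at an unadjusted p below 0.05, and DESeq2 and limma voom also called 0, with 192 and 398 at that level. The 95% interval of the interaction had a median half-width of 0.40 on the log2 scale for the 9962 genes whose log2 CPM averaged 2 or more, against 0.28 for the combined change. For a typical gene of this level, the interval of an interaction estimate smaller than 0.40 held 0. Larger departures from additivity could also go uncalled, because a call needed an adjusted p below 0.05. The median SE of the interaction was 0.72 in the IFN-γ-inducible list. Every gene below other than Ifngr1 is given as values, not as a change. The combined comparison and both single ones use the same 3 wt/null isotype libraries, so their values stand side by side and do not support each other.

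IFN-γ-inducible genes mostly had lower estimates with both perturbations. Of 33 measured, 27 had a lower and 6 a higher estimate (49.3% of all tested genes were lower and 50.7% higher). The median was -0.38 against 0.00 over all tested genes, and 2 of the 33 were lower at an unadjusted p below 0.05, against 0.732% of all tested genes. In 9 of the 33 (27.3%) the 3 null/null anti-TNF libraries lay below all 3 controls, against 3.61% of all tested genes. Among them were Cxcl9, the GTPases Iigp1, Igtp, Gm4951, Gbp2 and Gbp6, the transcription factor Batf2, and Serpina3f, a serine protease inhibitor. Reads of Gbp, Tgtp and Serpina3 genes can be split between near-identical copies, so single values in these families are uncertain.

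Cxcl9 had the lowest combined estimate of the 33. It was at 12.8, 39.8 and 20.8 CPM in the controls and at 4.28, 3.07 and 3.0 CPM in the null/null anti-TNF libraries. Every library of the combined group was below every control, the one that stands apart included, and the mean was 14.1% of the control mean. The combined log2 fold change was -2.82 ± 0.88 (SE, 95% interval -4.79 to -0.86, edgeR unadjusted p = 0.00944, adjusted p = 1.00). Genotype alone gave -2.34, with null/null isotype libraries at 3.50, 5.44 and 5.46 CPM. Antibody alone gave 0.98, but its libraries were at 17.0, 118 and 9.16 CPM, and the value of 118 was wt/null anti-TNF replicate 2. With the pair of libraries left out, antibody alone gave -0.90, the combined change was -3.01 and the interaction went from -1.45 ± 1.19 to 0.24 ± 0.68 (SE).

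Cxcl9 also shows how the choice of scale enters. Without the 2 libraries, adding both single CPM differences to the control mean predicts -6.62 CPM, a level that cannot exist, whereas multiplying by both single ratios predicts 2.56 CPM. The observed mean was 3.04 CPM. This reading depends on leaving those libraries out. With all 12 libraries, wt/null anti-TNF replicate 2 raises the antibody-alone mean, and both predictions for Cxcl9 are positive and above the observed mean. Without the 2 libraries, the predictions for Gbp2 were 34.3 and 42.2 CPM beside an observed 34.2 CPM. For Iigp1 they were 4.03 and 7.71 CPM beside 7.16 CPM.

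**Figure D1:**
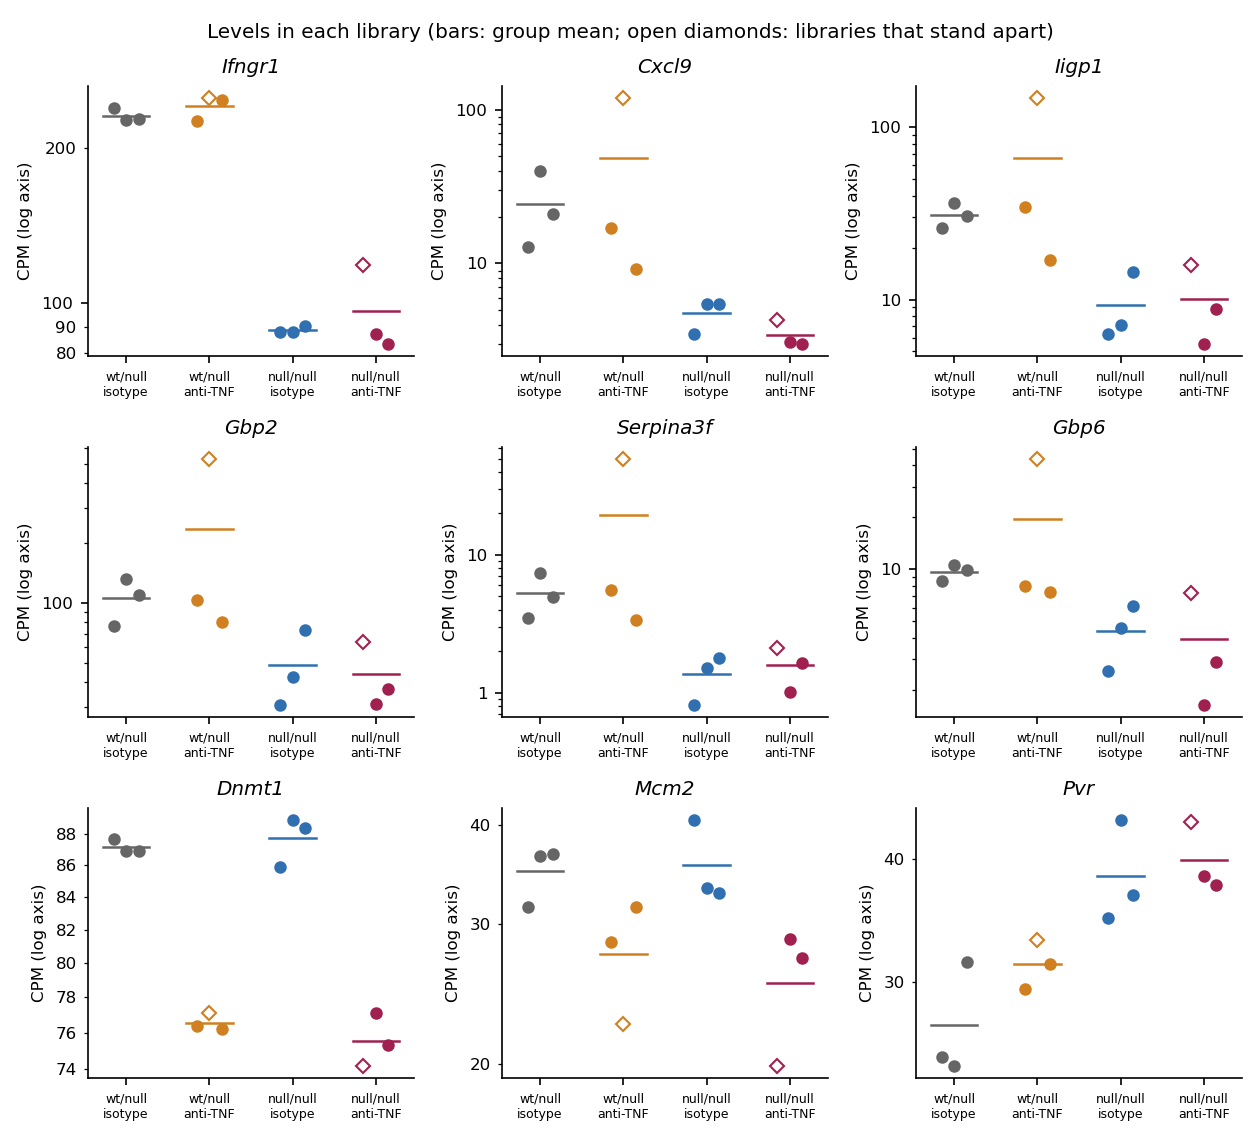
Levels of 9 genes in each of the 12 libraries, in CPM on a log axis, by group. Points are libraries, bars are arithmetic group means and open diamonds are the 2 libraries that stand apart. Cxcl9 lay between 3.0 and 4.28 CPM in the null/null anti-TNF libraries and between 12.8 and 39.8 CPM in the wt/null isotype libraries, and Dnmt1 separated by antibody rather than by genotype.

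Iigp1, an immunity-related GTPase that attacks the vacuoles of intracellular parasites, was at 26.0, 36.3 and 30.6 CPM in the controls and at 15.9, 5.52 and 8.80 CPM with both perturbations. The highest of these 3 was the library that stands apart, and the groups did not overlap. The combined log2 fold change was -1.62 ± 0.72 (SE, edgeR unadjusted p = 0.0479, adjusted p = 1.00), beside -1.73 for genotype alone and 1.09 for antibody alone. Antibody alone turned to -0.27 without the 2 libraries, and the combined change was then -2.11.

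Gbp2, a guanylate-binding protein of the same defence, was at 76.5, 133 and 110 CPM in the controls and at 63.9, 31.1 and 37.2 CPM with both perturbations. The log2 fold change was -1.27 ± 0.67 (SE), and it was -1.64 without the 2 libraries. Serpina3f was at 3.46, 7.44 and 4.99 CPM in the controls and at 2.12, 1.01 and 1.63 CPM with both perturbations. Neither gene overlapped between the groups. Gbp6 was at 8.50, 10.5 and 9.87 CPM against 7.24, 1.63 and 2.88 CPM, and its highest null/null anti-TNF library was again the one that stands apart. Igtp, whose promoter window holds both motifs, was at 35.0, 41.8 and 37.4 CPM against 34.9, 19.8 and 29.0 CPM, so that its separation rested on the gap between 35.0 and 34.9 CPM. Gm4951 and Batf2 were chosen, as were Gbp6 and Igtp, after their values were seen, with combined log2 fold changes of -1.01 and -0.51.

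Whether the IFN-γ-inducible genes were additive depended on the libraries that stand apart. With all 12 libraries, the list's median was -0.42 for genotype alone and 0.74 for antibody alone, so the sum of the single changes had a median of 0.17, and the combined change lay below that sum in 32 of the 33 genes (median interaction -0.69, against 50.6% of all tested genes below the sum). Without the 2 libraries the antibody-alone median was -0.10 and the sum -0.51, beside a combined median of -0.64. The interaction then had a median of -0.11, with 21 genes below and 12 above the sum (49.8% of all tested genes were below). Leaving out wt/null anti-TNF replicate 2 alone turned the interaction median to 0.23, with 8 genes below and 25 above. All 33 intervals of the interaction with 12 libraries held 0, and the smallest unadjusted p was 0.0716.

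The size of the combined change in these genes depended on single null/null anti-TNF libraries: its median was -0.64 without replicate 1, -0.18 without replicate 2 and -0.48 without replicate 3. With both apart libraries left out, 30 of 33 genes had a lower estimate and 18 were lower at an unadjusted p below 0.05, against 0.743% of all tested genes. In 23 of the 33 (69.7%) the remaining null/null anti-TNF libraries lay below all controls, against 8.34% of all tested genes. The mean log2 CPM over the list was 4.02, 4.47 and 4.36 in the controls and 4.16, 3.19 and 3.57 with both perturbations. The value of 4.16, in replicate 1, lay above the lowest control. Among the libraries titled 40 the combined median was -0.49, and with the title number as a block it was -0.45. Null/null anti-TNF replicate 1 also had the highest T and NK cell marker level of the 6. Its mean log2 CPM was 1.61 over 16 markers, against -0.58 to 0.16 in the other 5. Without the pair only 11 such markers passed the expression filter. Some of the 16 were thus tested only through the libraries that stand apart, and this level is a description. The same library held Ifng at 1.48 CPM against at most 0.278 CPM in the others. The part of these cells in the result was not tested.

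**Figure D2:**
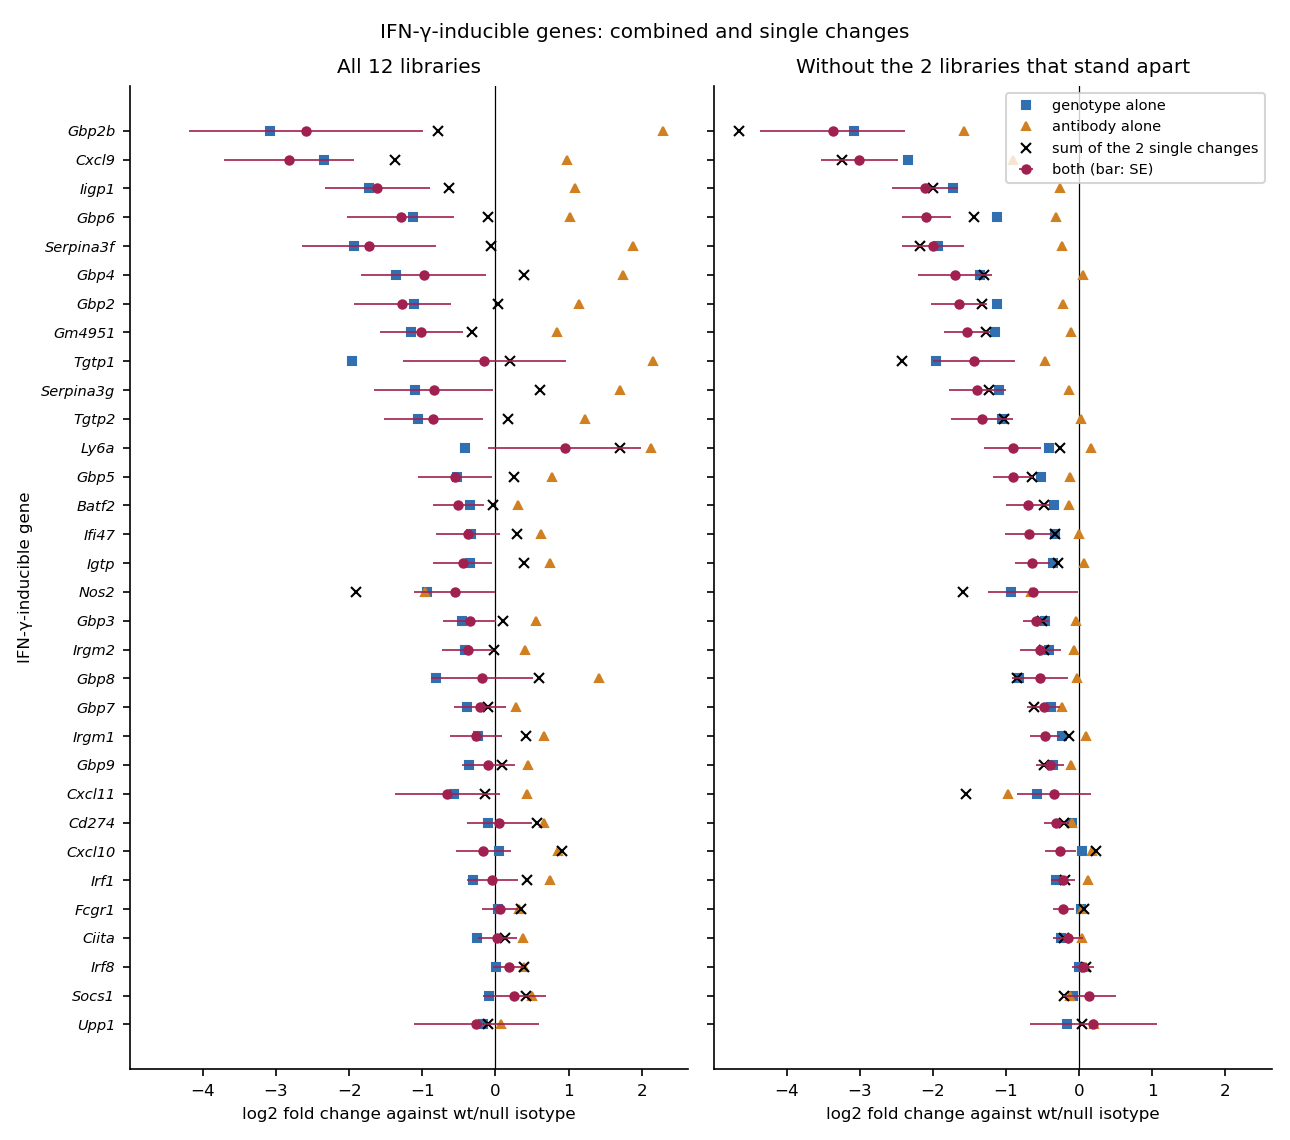
Log2 fold changes against wt/null isotype for 32 of the 33 IFN-γ-inducible genes, with all 12 libraries and without the 2 that stand apart. Squares are genotype alone, triangles antibody alone, crosses the sum of the single changes and circles with SE bars the combined change. Over the whole list, the combined change lay below the cross in 32 of 33 genes with all libraries, and without the 2 libraries in 21 of 33.

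Antigen presentation genes had smaller estimates. Of 18 genes of MHC class I and peptide loading, 17 had a lower combined estimate (median -0.13). Medians were -0.09 for genotype alone and 0.33 for antibody alone. In 1 of the 18 (5.56%) the null/null anti-TNF libraries lay below all controls, against 3.61% of all tested genes. Without the 2 libraries the antibody-alone median was 0.01 and the combined one -0.20, and in 10 of the 18 (55.6%) the remaining null/null anti-TNF libraries lay below all controls, against 8.34% of all tested genes. Nlrc5, the activator of class I genes, was at 65.3, 77.6 and 67.5 CPM in the controls and at 74.0, 42.3 and 48.1 CPM with both perturbations. The groups overlapped through the library that stands apart, and the log2 fold change went from -0.36 to -0.63 without the pair. Tapbp, which bridges class I molecules to the peptide transporter, did not overlap, at 371, 392 and 391 CPM against 313, 311 and 370 CPM. Its separation rested on the gap between 371 and 370 CPM. Of 13 MHC class II genes, 12 had a higher combined estimate (median 0.10), beside -0.05 for genotype alone and 0.49 for antibody alone, and without the 2 libraries the combined median was 0.03 and that of antibody alone 0.18. H2-Oa, which modulates class II peptide loading, was at 6.37 to 7.83 CPM in the controls and at 19.0, 7.74 and 8.35 CPM with both perturbations, and the value of 19.0 was the library that stands apart.

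Type I interferon-stimulated genes, which are induced through another interferon receptor, lay below the sum of the single changes, while the direction of their combined estimates depended on the libraries that stand apart. With all libraries, combined estimates were lower in 18 and higher in 17 of 35 genes (median -0.01). In 0 of the 35 were the groups apart, against 3.61% of all tested genes apart and lower and 4.29% apart and higher. The single changes had medians of 0.09 for genotype and 0.42 for antibody. The combined change lay below their sum in 35 of 35 genes (median interaction -0.56), against 50.6% of all tested genes. When the 2 libraries were left out, 35 of 35 combined estimates were lower (median -0.28), and in 4 of the 35 (11.4%) the remaining null/null anti-TNF libraries lay below all controls, against 8.34% of all tested genes. The combined change again lay below the sum in 35 of 35 genes, against 49.8% of all tested genes, with a median interaction of -0.52. Leaving out 1 library at a time gave interaction medians from -0.82 to -0.19, with the value nearest 0 without wt/null anti-TNF replicate 2. Single genes did not separate with all 12 libraries: the interaction interval of each of the 35 held 0. Without the 2 libraries, 1 of the 35 was below the sum at an edgeR unadjusted p below 0.05, against 0.597% of all tested genes. The list's mean log2 CPM was 6.05, 5.72 and 6.01 in the controls, 5.91, 6.89 and 6.18 with antibody alone, 5.47, 5.96 and 6.45 with genotype alone and 6.41, 5.27 and 5.89 with both, so libraries of 1 group differed by more than the group means did. Zbp1, a sensor of viral nucleic acid, had the lowest combined estimate, at 73.8, 79.7 and 76.2 CPM against 82.3, 43.3 and 50.6 CPM. Lying below the sum was not particular to this list. It held for 25 of 27 oxidative phosphorylation genes with all libraries and for 27 of 27 without the pair. For NF-κB targets the counts were 36 and 33 of 39, whereas for cell cycle genes they were 12 and 10 of 32. Genes of 1 list come from the same libraries, so such counts are not independent.

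On the TNF side, the TNF receptor genes differed little from the controls, while the ligand gene had a higher estimate that did not pass the test. Tnf was at 22.8, 27.7 and 20.7 CPM in the controls and at 42.1, 40.8 and 25.0 CPM with both perturbations, and the groups overlapped. The antibody binds the protein, so the transcript does not check its action. Tnfrsf1a was at 194 to 206 CPM in the controls and at 196 to 209 CPM with both, and Tnfrsf1b at 676 to 686 and 674 to 722 CPM. Of 23 genes of the ligands, receptors and signalling of both cytokines, 6 had a lower and 17 a higher combined estimate. Traf5, an adaptor of TNF-family receptors, did not overlap, at 14.9, 17.0 and 19.3 CPM against 20.7, 20.3 and 22.1 CPM. Socs3, a feedback inhibitor of cytokine signalling, was at 104, 128 and 144 CPM against 333, 191 and 115 CPM, and the value of 333 was the library that stands apart.

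Known NF-κB targets had mostly higher, not lower, estimates in the null/null libraries with anti-TNF antibody. Of 39 measured, 31 had a higher combined estimate (median 0.32). At an unadjusted p below 0.05, 3 of the 39 were higher, against 1.39% of all tested genes. In 5 (12.8%) the groups did not overlap, against 4.29% of all tested genes. These 5 were the chemokine Cxcl1, the cytokine gene Il12b, the maturation marker Cd83 and the NF-κB subunit and inhibitor genes Nfkb2 and Nfkbie. The single changes had medians of 0.20 for genotype and 0.35 for antibody, and their sum 0.57. Without the 2 libraries the combined median was 0.23, that of antibody alone 0.09 and that of the sum 0.25. Cxcl1, which attracts neutrophils, was at 7.51, 7.40 and 15.1 CPM in the controls and at 30.3, 22.4 and 18.6 CPM with both perturbations. Its log2 fold change was 1.25 ± 0.47 (SE, edgeR unadjusted p = 0.0233, adjusted p = 1.00), beside 0.83 for genotype alone and 1.31 for antibody alone. Il12b, the shared chain of the cytokines IL-12 and IL-23, was at 1.95, 1.33 and 2.56 CPM against 5.83, 3.11 and 3.57 CPM. Il1b was at 177, 156 and 268 CPM against 595, 328 and 220 CPM, and overlapped. All 25 genes of the dissociation-stress and immediate-early list also had higher combined estimates (median 0.30, and 0.22 without the 2 libraries), and Ier3, the 1 gene it shares with the NF-κB list, was at 52.3, 70.7 and 83.7 CPM against 158, 122 and 68.0 CPM. The part of cell handling in the NF-κB values was not tested.

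Irg1 (Acod1), the itaconate-producing enzyme of inflammatory macrophages, was the lowest of the pro-inflammatory list, in which 7 of 20 genes had a lower combined estimate. It was at 2.74, 3.72 and 6.79 CPM in the controls and at 3.67, 0.467 and 0.873 CPM with both perturbations. The value of 3.67 was the library that stands apart, and through it the groups overlapped. Its combined log2 fold change was -1.40 ± 0.74 (SE) and went to -2.72 without the 2 libraries.

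**Figure D3:**
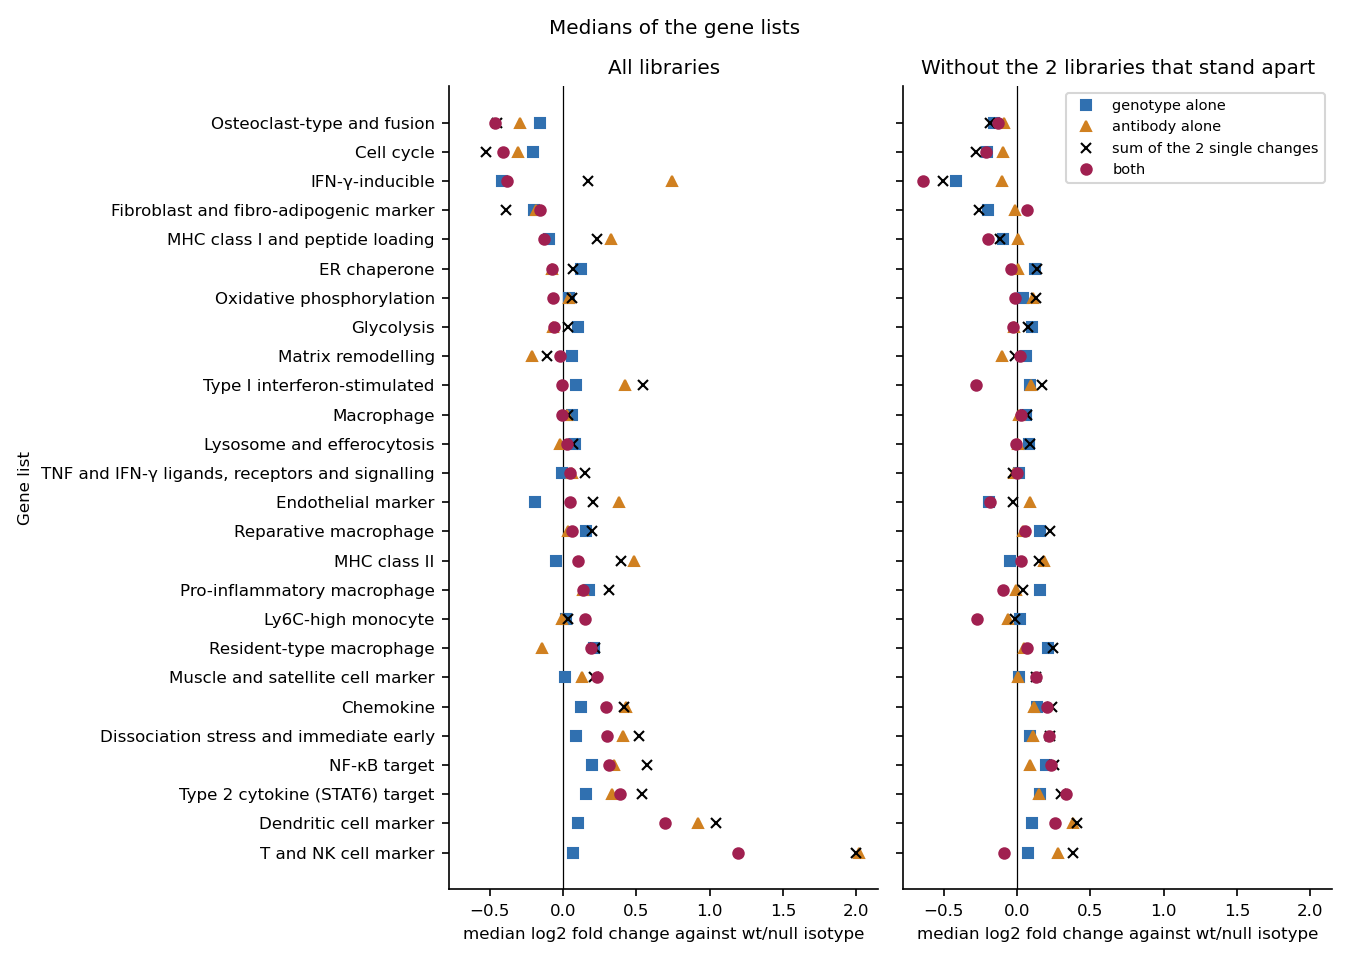
Median log2 fold change against wt/null isotype of each gene list with at least 10 measured genes, with all libraries and without the 2 that stand apart. Symbols are as for the IFN-γ-inducible genes. The combined median of the IFN-γ-inducible list moved from -0.38 to -0.64 and its sum of single changes from 0.17 to -0.51, while the T and NK cell markers had 1.19 over 16 genes with all libraries and -0.09 over the 11 that passed the filter without the pair.

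Targets of the type 2 cytokines IL-4 and IL-13, which act through STAT6 and which IFN-γ is known to oppose, had higher combined estimates in 19 of 20 genes (median 0.39). Genotype alone gave a median of 0.16, antibody alone 0.34 and their sum 0.54, and the interaction median was -0.05. In 4 of the 20 (20.0%), Batf3, Ccl22, Cish and Irf4, the groups did not overlap, against 4.29% of all tested genes, and 2 of 20 were higher at an unadjusted p below 0.05, against 1.39%. The antibody-alone median was 0.15 without the 2 libraries. Ccl17, a chemokine for type 2 helper T cells, was at 1.79, 1.92 and 0.416 CPM in the controls and at 1.67, 3.54 and 5.84 CPM with both perturbations, and the groups overlapped through the library that stands apart. Its log2 fold change was 1.43 ± 0.55 (SE, edgeR unadjusted p = 0.0235, adjusted p = 1.00), beside 1.36 for genotype alone and -0.05 for antibody alone. Ccl22, which uses the same receptor CCR4, was at 23.4, 19.2 and 14.3 CPM against 27.6, 24.8 and 23.6 CPM. Ccl22 was higher with genotype alone, at 31.6, 29.5 and 42.4 CPM, so its combined value of 0.42 lay below the sum of 1.21 (interaction -0.79 ± 0.28 (SE), edgeR unadjusted p = 0.0152, adjusted p = 1.00).

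Irf4 and Batf3 are also dendritic-cell factors, and the dendritic-cell list had higher combined estimates in 15 of 15 genes. Its combined median was 0.70 with all libraries and 0.26 without the pair, and Flt3 was at 20.4 to 27.1 CPM in the controls. Cd209a, a lectin of dendritic cells and resident macrophages, was at 43.8, 37.1 and 32.8 CPM against 97.8, 50.2 and 65.8 CPM. Cd209d, a relative of Cd209a, was at 1.95, 1.28 and 1.21 CPM against 3.52, 6.26 and 2.77 CPM, and neither lectin overlapped between the groups. For Cd209d the combined log2 fold change was 1.50 ± 0.35 (SE, edgeR unadjusted p = 0.00103, adjusted p = 1.00), beside 0.97 and 1.07 for the single perturbations and 1.61 without the 2 libraries. The part of the dendritic cells in these values was not tested.

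None of the 32 cell cycle genes passed the test, but all 32 had a lower combined estimate, with a median of -0.41, beside -0.20 for genotype alone and -0.31 for antibody alone. The sum of the single changes had a median of -0.53, and the interaction a median of 0.08. In 5 of the 32 (15.6%), Mcm2, Mcm6, Mki67, Cenpf and Rrm1, the groups did not overlap, against 3.61% of all tested genes. Lower at an unadjusted p below 0.05 were 2 of 32, against 0.732% of all tested genes. With the pair left out, 30 of 32 estimates were lower, with medians of -0.21 for the combined change and -0.10 for antibody alone. In 5 of the 32 (15.6%) the remaining null/null anti-TNF libraries then lay below all controls, against 8.34% of all tested genes. Leaving out 1 library at a time gave combined medians from -0.64, without null/null anti-TNF replicate 3, to -0.21, without null/null anti-TNF replicate 1. Mki67, a marker of cycling cells, was at 73.0, 97.2 and 92.7 CPM in the controls and at 45.0, 67.5 and 72.8 CPM with both perturbations, and the lowest was the library that stands apart. Mcm2, a subunit of the replicative helicase, was at 31.6, 36.5 and 36.8 CPM against 19.9, 28.8 and 27.2 CPM. Its log2 fold change was -0.47 ± 0.16 (SE), beside 0.02 for genotype alone and -0.35 for antibody alone.

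**Figure D4:**
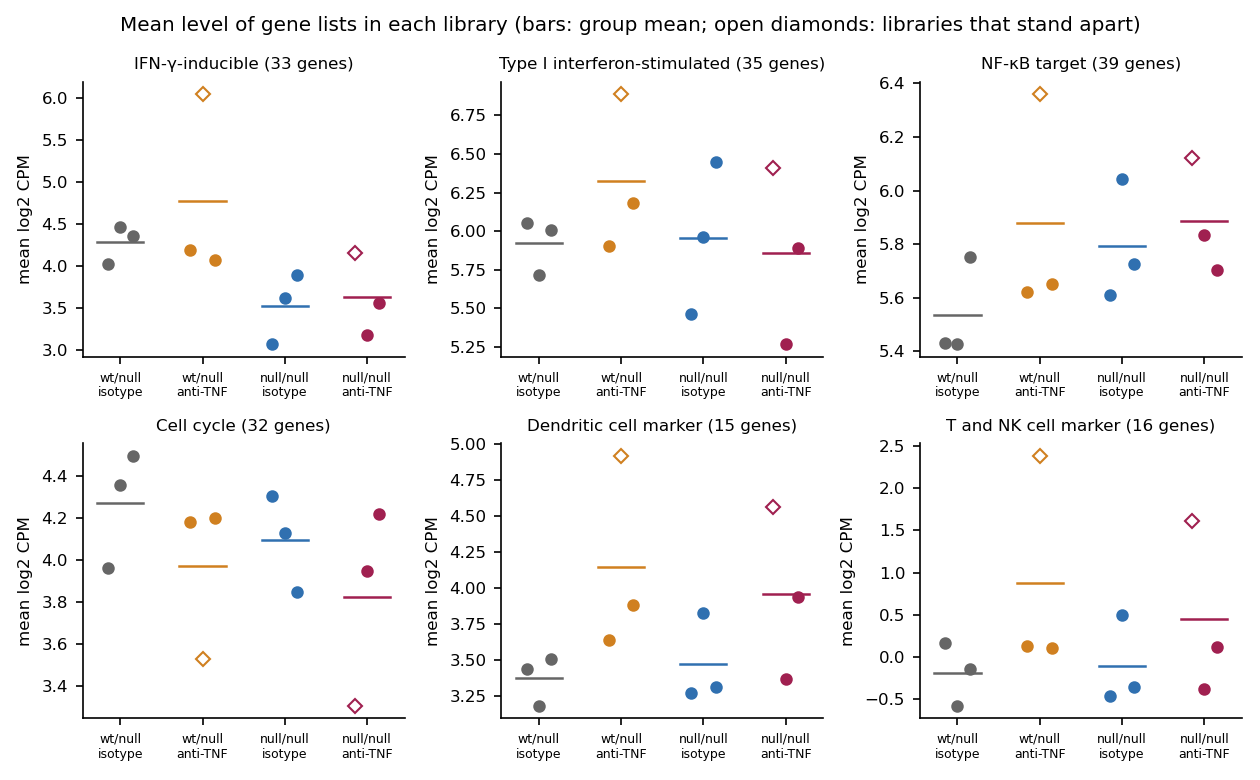
Mean log2 CPM of 6 gene lists in each of the 12 libraries, by group, with bars at the group means and open diamonds for the 2 libraries that stand apart. Those 2 libraries are the highest for dendritic-cell and T and NK cell markers and the lowest for cell cycle genes. Some of the T and NK cell markers passed the expression filter only through these libraries. In the null/null anti-TNF group the IFN-γ-inducible list was at 4.16, 3.19 and 3.57.

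Among all genes, the 12 lower and 12 higher with the smallest p were chosen by this contrast, so their levels are a description. The 12 lower ones were Ifngr1, Dnmt1, Tns3, Acot9, Cxcl9, Mcm2, Aida, Knstrn, Suclg1, Pdk1, Asf1b and Lmbr1, and in all 12 the groups did not overlap. Dnmt1, the maintenance DNA methyltransferase, was at 87.7, 86.9 and 86.9 CPM in the controls, 85.9, 88.9 and 88.4 CPM with genotype alone, 76.4, 77.1 and 76.2 CPM with antibody alone and 74.1, 77.1 and 75.3 CPM with both. Its 6 anti-TNF libraries were all below its 6 isotype libraries, and the log2 fold changes were -0.21, 0.01 and -0.19 in the combined, genotype and antibody comparisons. Tns3, an adhesion-site protein, was at 372, 362 and 376 CPM against 276, 301 and 338 CPM. Knstrn and Asf1b, which act in mitosis and in chromatin assembly, had log2 fold changes of -0.46 and -0.50. The mitochondrial genes Suclg1 and Pdk1 had values of -0.24 and -0.35. In Lmbr1 antibody alone gave -0.63 and the combined change -0.46, so it did not go beyond that single change.

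The 12 higher genes were Pvr, Olfm1, Ddr1, Acrbp, H2-Ke6, Pnpla6, Ccdc163, Tmem80, Wnt11, Rab24, Dnah2 and Gigyf1. Their combined estimates ran from 0.24 to 1.28, the groups did not overlap in any of the 12, and both single estimates were above 0 in all 12. Pvr, a ligand of the NK and T-cell receptors DNAM-1 and TIGIT, was at 25.2, 24.6 and 31.4 CPM in the controls and at 43.6, 38.4 and 37.7 CPM with both perturbations. Its log2 fold change was 0.56 ± 0.12 (SE, edgeR unadjusted p = 0.00048, adjusted p = 1.00), beside 0.51 for genotype alone and 0.21 for antibody alone. Null/null isotype libraries were at 34.8, 43.8 and 36.8 CPM, so the combined level was close to that of genotype alone. Olfm1, a secreted glycoprotein, was at 98.4, 99.7 and 98.5 CPM against 125, 117 and 120 CPM, with genotype alone at 113, 129 and 117 CPM and antibody alone at 116, 110 and 114 CPM. Each single perturbation thus gave a similar level to the combined one. With all 12 libraries, the sum of single CPM differences predicts 134 CPM beside an observed 121 CPM. Ddr1, a collagen receptor, was at 5.24, 4.96 and 4.88 CPM against 17.7, 8.94 and 9.98 CPM, and its log2 fold change went from 1.28 to 0.91 without the 2 libraries. The interaction interval held 0 in all 24 genes.

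**Figure D5:**
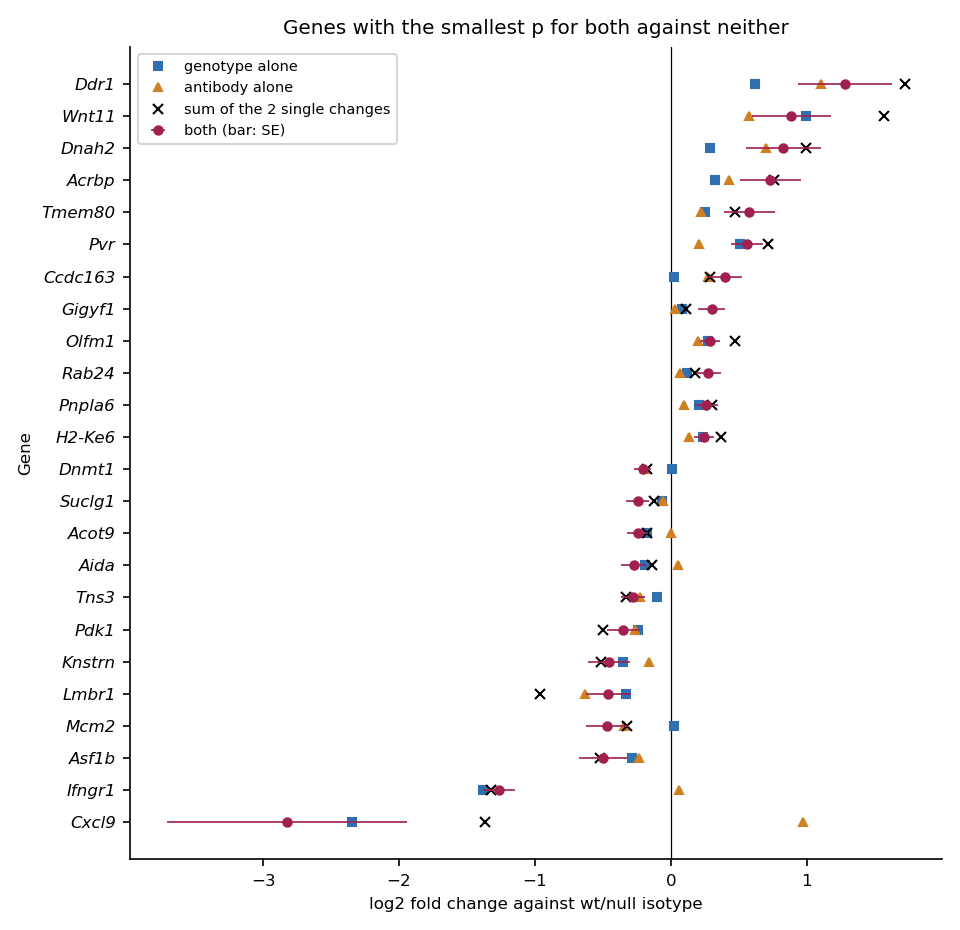
Log2 fold changes against wt/null isotype for the 12 lower and 12 higher genes with the smallest p in the combined comparison. Squares are genotype alone, triangles antibody alone, crosses their sum and circles with SE bars the combined change. Both single values lie above 0 in all 12 higher genes, and Ifngr1 follows genotype alone, with -1.39 beside a combined -1.27.

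The 5 genes furthest below and the 5 furthest above the sum by p were not IFN-γ or NF-κB list members. Their combined estimates were no larger than 0.32 in size, and the smallest unadjusted p was 0.0063 (edgeR, adjusted p = 1.00). Below the sum were Krtcap2, Mterf4, Prpsap1, Actr5 and Ppp1r11. Krtcap2, a subunit of the enzyme that adds N-linked sugars, was at 29.2, 32.8 and 31.8 CPM in the controls, 34.7, 32.6 and 37.0 CPM with antibody alone, 36.8, 37.4 and 36.0 CPM with genotype alone and 30.7, 31.7 and 32.3 CPM with both. Genotype-alone libraries lay above all controls, antibody-alone libraries overlapped the controls, and the libraries with both lay within the control range. Above the sum were Mynn, Phospho2, Prorsd1, Peli2 and Zfp874a. Mynn, a zinc finger protein, was at 18.0, 17.8 and 17.6 CPM in the controls, 17.1, 18.2 and 15.9 CPM with antibody alone, 15.2, 14.5 and 14.7 CPM with genotype alone and 18.1, 18.2 and 19.5 CPM with both. Only its genotype-alone libraries were apart from the rest. Ptprb, an endothelial phosphatase chosen after its values were seen, lay under the level used for naming, at 5.16, 3.98 and 3.77 CPM in the controls, 2.16, 1.81 and 1.90 CPM with genotype alone and 3.90, 4.36 and 3.11 CPM with both. Its interaction was 1.31 ± 0.31 (SE, edgeR unadjusted p = 0.00115, adjusted p = 1.00), and 1 of its 3 libraries with both perturbations lay below the control range. Endothelial genes are outside the sorted population by its gate, and the 12 markers summed to 55.0 to 84.3 CPM per library.

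Several broader macrophage lists had medians near 0. The 13 macrophage markers had a combined median of -0.01, the 29 genes of reparative macrophages 0.06, the 31 of lysosome and efferocytosis 0.03 and the 30 of matrix remodelling -0.02. Resident-type macrophage genes had higher estimates in 11 of 13 (median 0.19, and 0.07 without the pair). Ly6C-high monocyte genes had higher estimates in 9 of 13 with all libraries (median 0.15). Without the pair, 11 of those 13 had lower estimates (median -0.28). In matrix remodelling Mmp14, a membrane collagenase, did not overlap, at 490, 516 and 507 CPM against 410, 430 and 483 CPM, and Timp3, an inhibitor of such enzymes, was at 7.35, 3.98 and 4.09 CPM against 3.26, 3.89 and 3.79 CPM. The 18 genes of the osteoclast-type list had a median of -0.46 with all libraries and -0.13 without the pair. Their values moved with the library that stands apart. In it Ctsk, the bone-resorbing cathepsin, was at 35.9 CPM, against 261 and 982 CPM in the other 2 null/null anti-TNF libraries. The list also differed by title number. In the controls its mean log2 CPM was 6.30 in the library titled 46, against 4.99 and 5.05. With antibody alone it was 6.15 against 4.64 and 3.69, and with both 5.94 against 3.71 and 4.64. With genotype alone the library titled 46 was the lowest, at 5.31 against 5.40 and 5.67. The part of the title number in these values was not tested.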

How the data were processed

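Gene counts of 12 bulk RNA sequencing libraries were analysed as deposited by the authors in a single table of 24421 gene symbols. Per the labels, libraries were made with a stranded mRNA kit and sequenced paired-end. Per the submitters' processing notes, bcl2fastq 2.20, STAR, Bowtie and mm10 were used, with no role stated; the counting program, annotation and strand setting are not given in the sources used here.

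The deposited counts were filtered by expression (12981 genes tested), scaled by TMM and fitted over all 4 groups with edgeR 4.0.16 (R 4.3.3, robust glmQLFit and glmQLFTest, two-sided, Benjamini-Hochberg over all tested genes, called at adjusted p below 0.05). Contrasts were the combined change, both single changes and their interaction. CPM values are TMM-scaled, and list means use a prior count of 2. With 23.2 to 29.9 M counts a library and the spread between libraries, the median 95% half-width of the combined change was 0.28 (log2) for genes averaging 2 or more in log2 CPM. The scripts were tested on simulated data. Alternatives were DESeq2 1.42.0, limma 3.58.1 voom with quality weights, other scaling and filters, the title number as a block, subsets of libraries and leaving out each library.

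The comparison, its groups and the 29 gene lists (548 of 552 genes matched, 3 by an older symbol) were chosen with earlier results of these data known. Named genes were the ligands and receptors, 12 per direction and 5 per direction for the interaction by smallest p among genes averaging 2 or more in log2 CPM, the 4 smallest p values of each list at most, genes marking the libraries that stand apart, and those said to be chosen later. Gene positions and promoters came from RefSeq GRCm38.p6 by symbol. No library or column was left out of the main fit; 1 gene of the IFN-γ-inducible list is counted but not reported here by itself.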

Additional observations from a re-analysis of the deposited data

How the results depend on the processing

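Ifngr1 stayed the only call of the combined comparison under DESeq2, limma voom, another scaling, both other filters and the title number block, without the 2 libraries that stand apart, and without each library in turn. The count was 0 in the 8 libraries titled 40 (Ifngr1 at -1.18, adjusted p = 0.159) and 0 with only the 6 libraries compared (-1.27, adjusted p = 0.183), and it was 2 without the 2 libraries and with the block, where Irg1 joined (-2.82, adjusted p = 0.0136). Genotype alone gave 2 genes with DESeq2 and 0 in the libraries titled 40. Counts at an unadjusted p below 0.05 moved more: 276 became 416 with limma voom and 432 in the libraries titled 40 for the combined change, 234 became 1172 with limma voom and 393 without the 2 libraries for genotype alone, 581 became 252 without them for antibody alone, and 196 became 398 with limma voom and 73 in the libraries titled 40 for the interaction. The type 2 list's combined median was 0.44 with the block, 0.47 in the libraries titled 40, 0.33 without the 2 libraries with or without the block, and 0.33 to 0.45 without single libraries. The IFN-γ-inducible interaction median ran from -1.02 to 0.23 without single libraries. The Ifngr1 interaction changed sign to -0.027 with limma voom, -0.094 without the 2 libraries and -0.093 with the block added, and ran from -0.12 (without null/null anti-TNF replicate 1) to 0.16 without single libraries. Without the 2 libraries the Cxcl9 interaction was 0.24, and 0.25 with the block. Without single libraries the interaction ran from -1.98 to 0.43 for Cxcl9, -1.47 to 0.38 for Iigp1 and -1.72 to 0.060 for Gbp2, and each upper value was without wt/null anti-TNF replicate 2. The cause was not tested. Of 1590 alternative values for 73 gene results, 1578 kept their direction and their side of the threshold. That count does not measure how firm the results are. Only Ifngr1 was called in the main fit, and many of the other genes were picked by smallest p in these same libraries. No paired analysis was possible because the labels give groups no shared replicate numbers, and the block used only the title number. With 3 libraries a group, an interaction below about 0.40 (log2) was within the median 95% half-width.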
